A study of Mus musculus with 24 samples.

Results

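The proteins of the cytosolic ribosome were followed across the cerebellum and hippocampus of mice that lack Npc1. The members are the genes whose symbol is Rpl or Rps followed by a number, with the stalk proteins Rplp0, Rplp1 and Rplp2 and with Rpsa. Kinases of the Rps6k family and symbols marked as pseudogenes were left out. This rule found 89 of the 57126 genes in the count tables, 53 named for the large subunit and 36 for the small subunit. Of these, 20 held enough counts to be tested in a fit over both tissues, and 69 did not.

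The mice came from the BALB/cNctr-Npc1m1N/J strain. RNA was measured in 12 mice, 4 in each of 3 groups, from 2 tissues of each mouse, as 24 libraries. Npc1+/+ mice given vehicle (PBS:PEG400) were 4 females of postnatal day 65. Npc1-/- mice given vehicle were 3 males and 1 female of postnatal day 63. Npc1-/- mice given dipyridamole were 2 males and 2 females of postnatal day 63, and received 30 mg/kg by intraperitoneal injection on 5 days per week from postnatal day 28. No Npc1+/+ mice were given dipyridamole, so its effect is compared within Npc1-/- mice, and every group received the PBS:PEG400 solution. Loss of Npc1 is constitutive in this strain, and each library is the whole dissected tissue. The genotypes also differ in age by 2 days and in sex, and sex was estimated from the Npc1-/- mice alone.

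Cytosolic ribosomes consist of a small subunit, which reads the mRNA, and a large subunit, which joins amino acids. Each is built in the nucleolus from ribosomal RNA and from proteins, most of which are needed in equal numbers. The mRNAs of these proteins start with a run of pyrimidines, the terminal oligopyrimidine motif, through which mTORC1 signalling sets their translation. Npc1 exports cholesterol from lysosomes, and mTORC1 is activated at the lysosomal surface. In the cerebellum, loss of Npc1 is known for the death of Purkinje cells, and in both tissues for microglial activation.

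Library totals ran from 1833609 to 11590081 counts (median 7979867), and vehicle-treated Npc1-/- mouse 2 had the fewest in both tissues. The labels give both tissues of dipyridamole-treated mouse 4 the same Ion code, 124. Expression is given as CPM, the count scaled to the library total and adjusted by TMM. Npc1 checked the labels: it was 97.8 to 107 CPM in the Npc1+/+ cerebellum and 13.4 to 37.6 CPM in the 8 Npc1-/- cerebella, and 63.6 to 98.3 against 15.5 to 23.0 CPM in the hippocampus. The summed level of 5 cerebellar granule cell markers was at least 2945 CPM in every cerebellum and at most 30.0 CPM in every hippocampus. The summed level of 7 hippocampal and telencephalic neuron markers was at least 577 CPM in every hippocampus and at most 96.2 CPM in every cerebellum. Markers of the choroid plexus, which can come along with either tissue, summed to between 31.6 and 8088 CPM.

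Most members were barely counted. Over all 24 libraries, 10 members had no count at all, 59 had 1 to 68 counts, 5 had 163 to 656 and 15 had 2100 to 201133. The 15 well counted members held 99.75% of the 1096621 counts of the family, which made up 0.577% of the 190168351 counts of the series. A total of 0 over all libraries allows a level of up to 0.0158 CPM (3 counts), a limit that covers counting error only. Rpl10l, Rpl13a, Rpl24, Rpl6l, Rps10, Rps12, Rps12l1, Rps16, Rps3a2 and Rps3a3 were at 0. Of these, Rpl6l, Rps12l1, Rps3a2 and Rps3a3 have no coding sequence annotated in GENCODE vM21.

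Low counts were frequent in this family and among the ribosomal protein genes named outside the rule, and rarer among other genes of translation. Of 6 ribosomal protein genes outside the rule, 5 had under 100 counts (83.3%). So did 6 of 18 other mRNAs with a terminal oligopyrimidine motif (33.3%). Under 100 counts were found for 69 of 89 members (77.5%), for 12 of 78 mitochondrial ribosomal protein genes (15.4%), for 5 of 38 initiation factor genes (13.2%), for 2 of 60 ribosome biogenesis genes (3.33%) and for 8679 of 21745 protein-coding genes (39.9%). The counts are amplicon reads of a targeted panel, so a low count of one member against another is not a ratio of transcript levels. The panel's amplicons were not located here, and the command in the file headers did not ask for reads that map to several places to be counted. Members with low counts had more near-identical copies elsewhere. The coding sequence of the median member under 100 counts matched transcripts of 12 other annotated genes at 90% identity or more over at least 100 bases. The 5 thinly counted members matched a median of 7, and the well counted members a median of 3 (14 of 15, since the coding sequence of Rpl41 is too short for this search). Of the 69 members under 100 counts, 42 had 10 or more such copies, against 1 of the 14 well counted members searched, Rpl34. The groups overlap: Rpl3l and Rpl39l, paralogues with restricted expression, had no such copy and 31 and 58 counts. The part of these copies in the low counts was not tested.

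**Figure D1:**
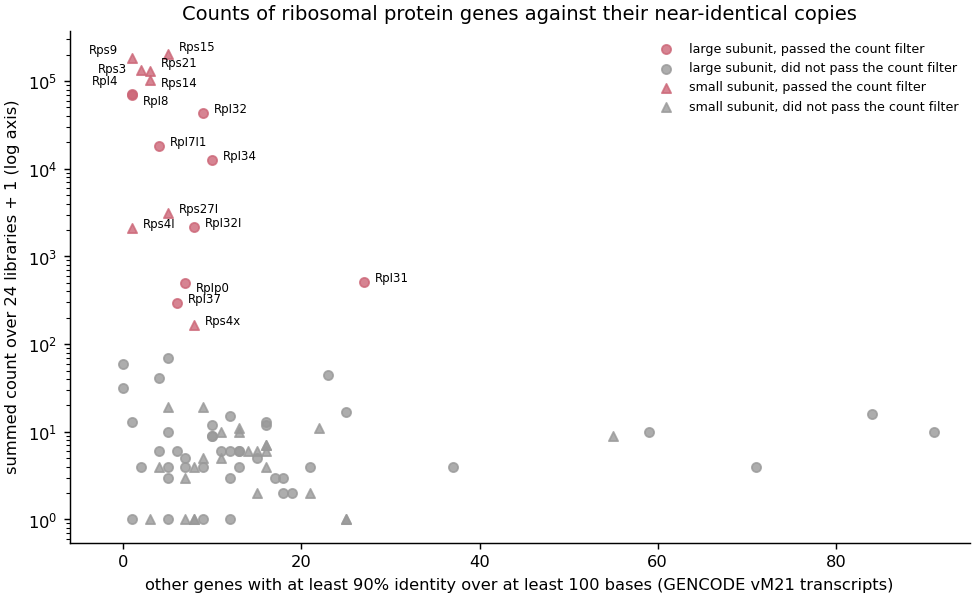
Summed count over 24 libraries (log axis, with 1 added) of the members against the number of other annotated genes with at least 90% identity over at least 100 bases; circles are large and triangles small subunit proteins, and coloured points are members that passed the count filter. The well counted members shown have at most 10 copies, while members under 100 counts reach 91. Rpl41, whose coding sequence is under 100 bases, and 2 other tested members are left out.

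Whole functional groups of the ribosome were therefore out of reach. Of the stalk, which recruits elongation factors, Rplp0 had 493 counts, while Rplp1 had 11, Rplp2 had 3 and Rpl12, the base of the stalk, had 4. Rpl5 and Rpl11, which form the 5S particle that binds Mdm2, had 5 and 8 counts. Of 9 genes mutated in Diamond-Blackfan anaemia, a failure of red cell production, none had more than 16 counts. Of 3 members used as reference genes in quantitative PCR, Rpl13a had 0 counts, Rps18 had 1, and Rplp0 was thinly counted. Of the ribosomal proteins named outside the rule, Fau, the source of the small subunit protein eS30, had 15 counts, but Rack1, a scaffold of the small subunit, had 141186.

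Parent genes and their copies show how closely the members resemble each other. In each pair below, capitals mark the bases that differ between parent and copy, 5′ to 3′ (GENCODE vM21 transcripts, GRCm38). The 60-base stretch is that of the parent's coding sequence with the most differences, numbered from its first coding base. Rpl32l, Rps12l1 and Rps4l have no annotated coding sequence, so their whole transcript was aligned. Rpl32 and Rpl32l are shown because both were counted (43397 and 2178 counts), although 388 of 398 aligned bases are the same (97.5%). The stretch covers bases 251 to 310.
Rpl32: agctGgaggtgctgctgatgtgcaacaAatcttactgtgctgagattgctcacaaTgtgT
Rpl32l: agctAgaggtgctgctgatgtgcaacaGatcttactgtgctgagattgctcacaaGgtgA
Rps12 and Rps12l1 are shown because they are the same at all 399 coding bases of Rps12 and both had 0 counts. The stretch covers bases 1 to 60 and holds no capitals.
Rps12: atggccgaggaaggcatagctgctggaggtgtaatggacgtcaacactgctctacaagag
Rps12l1: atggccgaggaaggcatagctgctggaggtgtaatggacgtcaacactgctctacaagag

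In the 2 pairs that follow, the copy had more counts than its parent. Rps4l had 2100 counts and the X-linked parent Rps4x had 163, and 79.9% of the aligned bases are the same. The stretch covers bases 475 to 534.
Rps4x: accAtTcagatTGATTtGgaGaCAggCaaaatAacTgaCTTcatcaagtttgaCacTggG
Rps4l: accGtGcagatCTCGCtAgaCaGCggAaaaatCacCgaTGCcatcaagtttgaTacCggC
Rps27l, a p53-regulated paralogue, had 3151 counts and Rps27 had 4, with 76.3% of the aligned coding bases the same. The stretch covers bases 4 to 63.
Rps27: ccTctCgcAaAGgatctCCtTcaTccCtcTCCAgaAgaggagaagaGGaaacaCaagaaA
Rps27l: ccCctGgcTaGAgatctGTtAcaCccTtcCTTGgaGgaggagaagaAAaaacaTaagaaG

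Rpl41, a large subunit protein with 46444 counts, is shown for its size. Its coding sequence of 78 bases, among the shortest known, encodes 25 amino acids and is given whole, with no capitals, since nothing is compared.
Rpl41: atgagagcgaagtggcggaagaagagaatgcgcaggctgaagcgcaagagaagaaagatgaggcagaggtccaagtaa

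A pyrimidine run near an annotated transcription start was more frequent in the family than among all genes. Among RefSeq promoters (GRCm38.p6), 64 of the 89 members had an entry, and 53 of these (82.8%) had a C followed by at least 7 further C or T within 50 bases of an annotated start on the sense strand. Among all 27025 genes with an entry, 8645 (32.0%) had such a run. Of the 14 tested members with an entry 10 had it, and of the 50 others 43 had it. Runs of 5 tested members are given with 6 bases on each side, the run in capitals. With the annotated start as base 1 and the base before it as -1, the runs begin at base 1 in Rpl32l, -5 in Rps9, 26 in Rps15, 29 in Rpl37 and 35 in Rps21, so they lie at and on both sides of the start. A match is a description of these letters and not a measured start.
Rpl32l (chr10:20208433-20208454, plus strand): gaccagCTTCTTCCTTggtgct
Rps9 (chr7:3704030-3704049, plus strand): ccttgtCTCTCTTTgtctcg
Rps15 (chr10:80292450-80292472, plus strand): cccgtaCTTCCTTTTCCgagtaa
Rps21 (chr2:180257407-180257428, plus strand): gagctaCTTCCTTTCTgcgctc
Rpl37 (chr15:5116635-5116657, plus strand): ggggtgCTTTCTCTTCCggtctc

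The comparison of vehicle-treated Npc1-/- with vehicle-treated Npc1+/+ mice asks what absence of Npc1 did to the family. Rpl34 fell in the cerebellum and no other tested member passed the test. Of 19 members tested in the cerebellum, 1 was called (5.26%), against 9.95% of the 12921 genes tested (edgeR quasi-likelihood test with group and sex in the model, Benjamini-Hochberg adjusted p under 0.05). By direction, 5.91% of all genes were called higher and 4.04% lower. Fitted differences hold sex constant and can differ in sign from the group means. The members' log2 fold changes ran from -0.65 to 0.54 with a median of 0.09 (0.21 without the sex term), and the median over all genes tested was 0.0064.

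Rpl34, a protein of the large subunit, lies on chromosome 3 from 130520480 to 130524047 (GRCm39, minus strand). In the cerebellum it stood at 75.1, 71.6, 90.1 and 71.0 CPM in the Npc1+/+ mice. It stood at 56.2, 65.3, 47.6 and 48.0 CPM in the vehicle-treated Npc1-/- mice and at 54.0, 62.0, 54.1 and 48.4 CPM in those given dipyridamole. Every Npc1-/- cerebellum lay below every Npc1+/+ cerebellum. The fitted log2 fold change was -0.65 ± 0.18 (SE, adjusted p = 0.027). Without Npc1+/+ mouse 3, which had the highest value, it was -0.57 (adjusted p = 0.071). Without vehicle-treated Npc1-/- mouse 3, the only female of its group, it was -0.62 (adjusted p = 0.21). The call was also lost when only the 2 groups were fitted (-0.67, adjusted p = 0.195). In female mice alone, with 1 vehicle-treated Npc1-/- library, the value was -0.68. With 10 near-identical genes elsewhere, reads of Rpl34 could also map to its copies.

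Rps14 and Rps15 were the members nearest to the threshold in the other direction. Rps14, a protein of the small subunit platform whose human gene is lost in the 5q- syndrome, lies on chromosome 18 from 60880170 to 60911618 (plus strand). In the cerebellum it stood at 329.7, 388, 391 and 400.2 CPM in the Npc1+/+ mice and at 405, 461, 511 and 565 CPM in the vehicle-treated Npc1-/- mice. The groups did not overlap, with a fitted log2 difference of 0.39 ± 0.17 (SE, adjusted p = 0.16). Rps15, a protein of the small subunit head, lies on chromosome 10 from 80128287 to 80129948 (plus strand). It stood at 692, 753, 745 and 809 CPM in the Npc1+/+ cerebellum and at 939, 855, 925 and 1024 CPM in the vehicle-treated Npc1-/- cerebellum. These groups did not overlap either, with a log2 difference of 0.33 ± 0.15 (SE, adjusted p = 0.18).

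Libraries of the 2 groups did not overlap for 4 of 19 members in the cerebellum, against 20.7% of all genes tested. The fourth was Rps27l. It stood at 23.98, 20.1, 19.9 and 24.1 CPM in the Npc1+/+ mice and at 17.7, 4.63, 19.1 and 13.8 CPM in the vehicle-treated Npc1-/- mice. Its fitted difference depended on the sex term: the log2 value was -0.05 with it (adjusted p = 0.95) and -0.57 without it (adjusted p = 0.22).

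Summed over all 89 members, the share of library counts was 0.449%, 0.489%, 0.501% and 0.493% in the 4 Npc1+/+ cerebella. It was 0.565%, 0.580%, 0.551% and 0.638% in the vehicle-treated Npc1-/- cerebella and 0.600%, 0.558%, 0.577% and 0.567% in those given dipyridamole. Every Npc1-/- cerebellum lay above every Npc1+/+ cerebellum, a description that rests on the few members with the most counts. In the hippocampus the shares were 0.564 to 0.607% in Npc1+/+ mice, 0.578 to 0.627% in vehicle-treated Npc1-/- mice and 0.610 to 0.724% in those given dipyridamole.

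Cell composition moved with genotype in the same cerebella. The summed level of 5 Purkinje cell markers was 4835 to 5752 CPM in Npc1+/+ and 471 to 808 CPM in vehicle-treated Npc1-/- mice, and all 5 fell. The summed level of 8 markers of activated microglia was 36.1 to 43.4 CPM against 826 to 997 CPM, and all 8 rose. None of these markers was at 0. In bulk tissue, fewer cells of a type and less RNA per cell cannot be told apart, and the part of composition in the member values was not tested.

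**Figure D2:**
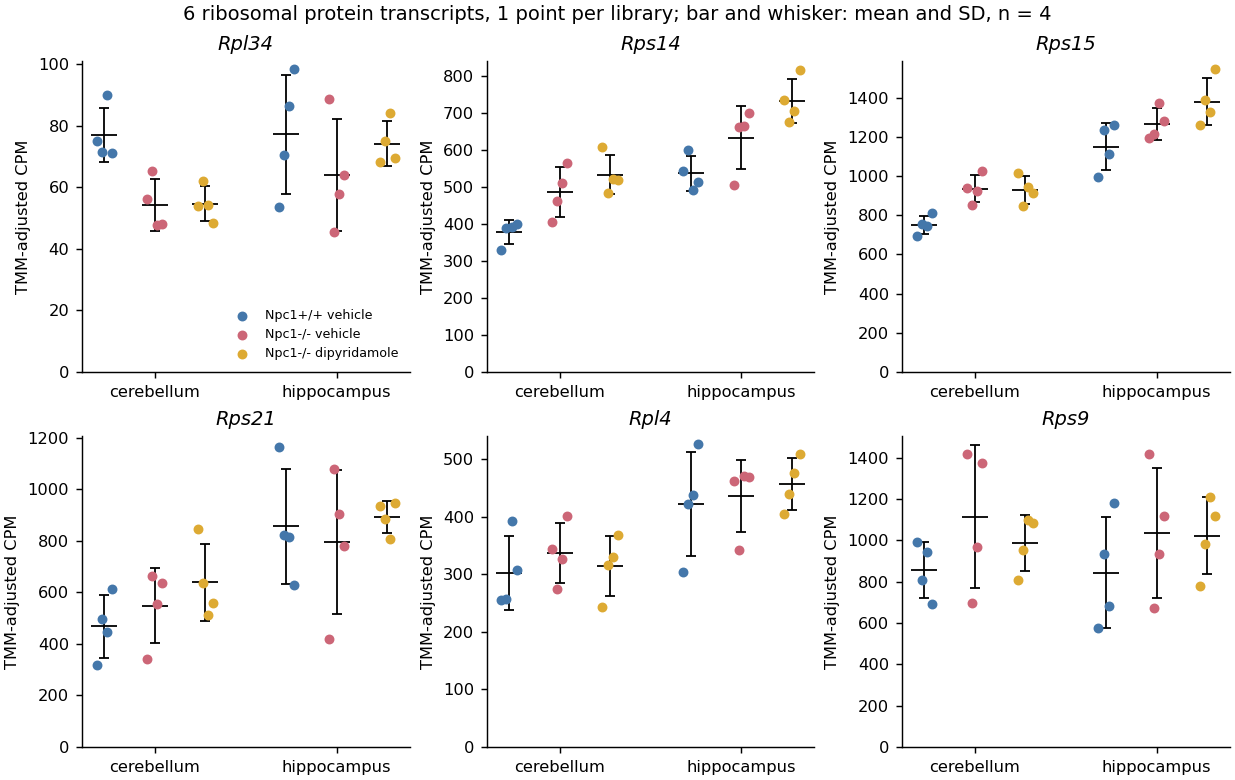
TMM-adjusted CPM of 6 members in each library, by tissue and group; each point is a library, the horizontal bar is the mean and the whisker the SD (n = 4). Rpl34 lies lower in both Npc1-/- groups of the cerebellum, Rps14 and Rps15 lie higher in the hippocampus than in the cerebellum, and Rps9 spreads from 674 to 1419 CPM within the vehicle-treated Npc1-/- hippocampus.

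In the hippocampus no member was called for genotype. Of 19 members, 0 passed (edgeR adjusted p), against 1.62% of 12740 genes tested (1.02% higher and 0.597% lower), and 1 was under an unadjusted p of 0.05. DESeq2 and limma-voom called 0 as well. That member was Rplp0, the scaffold of the stalk. It stood at 1.36, 1.64, 3.09 and 1.21 CPM in the Npc1+/+ hippocampus and at 3.33, 1.92, 3.95 and 1.85 CPM in the vehicle-treated Npc1-/- hippocampus. These groups overlap, and the log2 difference was 0.94 ± 0.43 (SE, adjusted p = 0.40). Rps14 stood at 543, 600.3, 492 and 513 CPM against 506, 663, 664 and 699 CPM, a log2 difference of 0.31 ± 0.16 (SE, adjusted p = 0.48). For Rps15, Rps27l and Rps9 the log2 difference was 0.24 ± 0.15, -0.33 ± 0.25 and 0.42 ± 0.33 (SE, adjusted p of 0.58, 0.66 and 0.66). Libraries did not overlap for 0 of the 19 members in the hippocampus, against 11.7% of all genes tested. The median log2 difference of the members was 0.06, against -0.013 over all genes.

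Myelin moved with genotype in these hippocampi: the summed level of 6 myelin markers was 4579 to 5798 CPM in Npc1+/+ and 1130 to 1671 CPM in vehicle-treated Npc1-/- mice, and all 6 fell. Activated microglia markers summed to 56.0 to 64.9 CPM against 231 to 364 CPM. The part of either in the member values was not tested.

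The genotype difference was also compared between the tissues in a fit over all 24 libraries. None of 20 members differed between tissues in its response to genotype (edgeR adjusted p), against 1.15% of 13436 genes, and 0 were under an unadjusted p of 0.05. DESeq2 and limma-voom called 0 too. For Rpl34 the hippocampal minus the cerebellar log2 fold change was 0.40 ± 0.31 (SE, adjusted p = 0.83). The fall of Rpl34 in the cerebellum is therefore not shown to be particular to that tissue.

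Dipyridamole was compared with vehicle within Npc1-/- mice, the comparison that the treatment was designed for. No member was called in either tissue: 0 of 19 in the cerebellum and 0 of 19 in the hippocampus (edgeR adjusted p), where 0.0% of all genes were called as well. At an unadjusted p under 0.05 there were 0 members in either tissue, against 300 of 12921 genes in the cerebellum and 93 of 12740 in the hippocampus. DESeq2 and limma-voom called no member either. Libraries of the 2 Npc1-/- groups overlapped for every tested member in both tissues, and 1.22% and 1.2% of all genes did not overlap.

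The width of the intervals differed between the well counted members. Rpl7l1 in the hippocampus had a log2 difference of -0.27 (normal 95% interval -0.97 to 0.43), and the intervals of Rpl32l (-0.78 to 0.36) and Rps27l (-0.80 to 0.31) in the cerebellum were also wide. For Rps3, a small subunit protein at the mRNA entry that also acts in DNA repair, the hippocampus held 702, 708, 758 and 799.8 CPM with vehicle and 806, 778, 790.1 and 838 CPM with dipyridamole. The log2 difference was 0.10 (normal 95% interval -0.11 to 0.31). For Rps14 in the hippocampus, vehicle gave 506, 663, 664 and 699 CPM and dipyridamole 734, 676, 704 and 816 CPM, a log2 difference of 0.18 (-0.08 to 0.44). In the cerebellum Rps14 was 607, 483, 521 and 519 CPM with dipyridamole, 0.12 above vehicle on the log2 scale (-0.14 to 0.39). Rps21, a small subunit protein, had the smallest p among the well counted members in the cerebellum. It was 339, 663, 556 and 634 CPM with vehicle and 847, 636, 513 and 557 CPM with dipyridamole, and the log2 difference was 0.26 (-0.17 to 0.68). For the thinly counted Rplp0 the cerebellar interval ran from -1.32 to 0.25, so neither a fall by 1.32 nor no change is excluded at this depth. Rps9 and Rps4x differed by -0.21 and 0.62 on the log2 scale in the cerebellum, with intervals of -0.61 to 0.20 and -0.62 to 1.85. In female mice alone, with 1 vehicle-treated library in the cerebellum, both signs turned, to 0.16 and -0.79. Leaving out 1 mouse gave -0.41 to -0.07 and 0.15 to 1.69. In the hippocampus Rpl31, Rpl41 and Rpl34 differed by 0.36 (-0.23 to 0.95), 0.13 (-0.11 to 0.38) and 0.21 (-0.23 to 0.65).

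The response to dipyridamole was not shown to differ between tissues for any of 20 members (0 called with edgeR, 0.0% of all genes, and 0 members under an unadjusted p of 0.05). DESeq2 and limma-voom called 0.

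**Figure D3:**
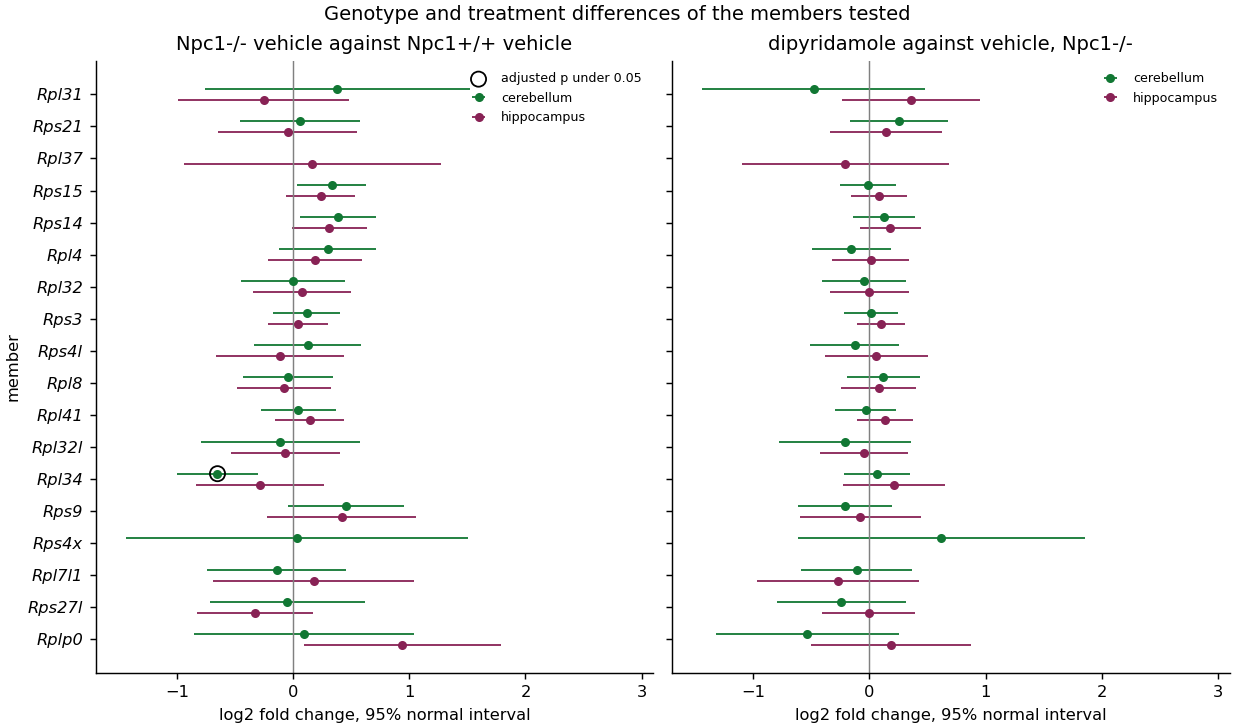
Log2 fold change of 18 tested members with its normal 95% interval, for genotype (left) and dipyridamole (right), in the cerebellum and the hippocampus; an open circle marks an adjusted p under 0.05. Only Rpl34 in the cerebellum is circled, at -0.65, and every dipyridamole interval spans 0.

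Dipyridamole-treated Npc1-/- mice were also set against Npc1+/+ mice, a comparison that shares its Npc1+/+ libraries with the genotype comparison. In the cerebellum 2 of 19 members were called (10.5%), against 14.4% of all genes (8.13% higher and 6.29% lower). Rpl34 fell, by 0.59 ± 0.16 on the log2 scale (SE, adjusted p = 0.018), and Rps14 rose, by 0.51 ± 0.15 (SE, adjusted p = 0.028). Both calls were lost without Npc1+/+ mouse 3 (adjusted p of 0.056 for Rpl34 and 0.053 for Rps14). Both were also lost without dipyridamole-treated mouse 4, whose tissues share an Ion code (adjusted p of 0.115 and 0.0996), and that of Rps14 was lost without Npc1+/+ mouse 1, Npc1+/+ mouse 2 or dipyridamole-treated mouse 3 (adjusted p of 0.055 to 0.079). The Rps15 difference was 0.32 ± 0.13 (SE, adjusted p = 0.12). Libraries did not overlap for Rpl34, Rps14 and Rps15, 3 of 19 members against 25.8% of all genes.

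In the hippocampus 0 of 19 members were called in that comparison (edgeR), against 2.68% of all genes (1.59% higher and 1.09% lower), and 3 were under an unadjusted p of 0.05. These were Rps14, Rplp0 and Rps15. Every dipyridamole-treated hippocampus lay above every Npc1+/+ hippocampus for Rps14, Rps15 and Rps3, 3 of 19 members against 12.4% of all genes. For Rps14 the log2 difference was 0.49 ± 0.14 (SE, adjusted p = 0.098), and DESeq2 called it (adjusted p = 0.023). Limma-voom called no member. Rplp0 stood at 2.81, 3.36, 3.38 and 4.07 CPM with dipyridamole, 1.12 ± 0.39 (SE, adjusted p = 0.16) above Npc1+/+ on the log2 scale.

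The largest differences of the family lay between the tissues. Within the same mice, 7 of 20 members were higher in the hippocampus than in the cerebellum of Npc1+/+ mice (35%), and none was lower. All genes were called at 43.1%, split into 21.8% higher and 21.2% lower. In vehicle-treated Npc1-/- mice 5 of 20 members were called and in dipyridamole-treated mice 7 of 20, each time all higher in the hippocampus. All genes were called at 41.4% and 41.0% there, with 20.8% and 20.7% higher and 20.6% and 20.3% lower. The members called were thus a smaller share than that of all genes, while all of them lay in the same direction. The members' median log2 difference was 0.21, 0.13 and 0.28 in the 3 groups, against -0.016, -0.0088 and -0.0096 over all genes.

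Rps15, Rps14, Rps21, Rpl4 and Rpl31 were called in all 3 groups of mice. Rps15 was 997, 1235, 1111 and 1260.1 CPM in the Npc1+/+ hippocampus, above all 4 cerebellar values given earlier, with a log2 difference of 0.61 ± 0.11 (SE, adjusted p = 0.00012). Its difference was 0.44 ± 0.11 in vehicle-treated and 0.57 ± 0.11 in dipyridamole-treated Npc1-/- mice (SE, adjusted p of 0.0027 and 0.00028). Rps14 differed by 0.51 ± 0.11, 0.38 ± 0.11 and 0.46 ± 0.11 on the log2 scale (SE, adjusted p of 0.00076, 0.0077 and 0.0018).

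Rpl4, a large subunit protein at the exit tunnel, lies on chromosome 9 from 64080657 to 64085948 (plus strand). It was 256, 256, 392 and 307 CPM in the Npc1+/+ cerebellum and 305, 421, 437 and 525 CPM in the hippocampus of the same mice, in that order. The groups overlap, but each mouse was higher in the hippocampus, with a log2 difference of 0.47 ± 0.12 (SE, adjusted p = 0.0032). The difference was 0.38 ± 0.12 and 0.55 ± 0.12 in the 2 Npc1-/- groups (SE, adjusted p of 0.016 and 0.0010). In vehicle-treated Npc1-/- mice it was not called without mouse 1 (0.36, adjusted p = 0.063) or mouse 3 (0.33, adjusted p = 0.079).

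Rps21 lies on chromosome 2 from 179899170 to 179900238 (plus strand). It was 318, 497, 447 and 611 CPM in the Npc1+/+ cerebellum and 1163, 823, 813 and 628 CPM in the hippocampus, groups that do not overlap. The log2 difference was 0.87 ± 0.20 (SE, adjusted p = 0.0018). It was 0.50 ± 0.20 in vehicle-treated and 0.51 ± 0.20 in dipyridamole-treated Npc1-/- mice (SE, adjusted p of 0.049 and 0.046). Both of these calls were lost on leaving out any 1 mouse of the group except dipyridamole-treated mouse 1, with log2 values of 0.42 to 0.57. Both were also lost without a filter, with a stricter filter, without the mouse block, with library totals and without vehicle-treated Npc1-/- mouse 2 and dipyridamole-treated mouse 4 (adjusted p of 0.0505 to 0.173), and the former with limma-voom (adjusted p = 0.055).

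Rpl31, a large subunit protein beside the exit tunnel, lies on chromosome 1 from 39406923 to 39410992 (plus strand). It was 1.30, 1.10, 0.385 and 1.09 CPM in the Npc1+/+ cerebellum and 2.80, 4.22, 5.24 and 4.68 CPM in the hippocampus. That is a log2 difference of 2.05 ± 0.40 (SE, adjusted p = 0.00043), the largest of the family, on 3 to 59 counts per library. It was 1.61 ± 0.43 and 2.41 ± 0.41 in the Npc1-/- groups (SE, adjusted p of 0.0057 and 0.00011). Its exons overlap those of Tbc1d8 on the other strand, and where strand is ignored, reads within the overlap cannot be told apart. Tbc1d8 itself was lower in the hippocampus, by a log2 value of -1.60 ± 0.15 (SE, adjusted p = 1.0e-07) in Npc1+/+ mice. Rpl31 also has 27 near-identical genes elsewhere.

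Calls that were not shared by all 3 groups were closer to the threshold. Rps3 was called in Npc1+/+ mice (0.26 ± 0.10, SE, adjusted p = 0.042), and the call was lost on leaving out any 1 of the 4 mice (adjusted p of 0.062 to 0.12). Rpl37 and Rpl34, large subunit proteins, were called in dipyridamole-treated mice (1.27 ± 0.45 and 0.44 ± 0.17, SE, adjusted p of 0.031 and 0.041). Leaving out any 1 mouse of that group ended both calls, with adjusted p of 0.051 to 0.14 for Rpl37 and 0.065 to 0.16 for Rpl34. Scaling to library totals in place of TMM ended the call of Rps3 in Npc1+/+ mice (0.17, adjusted p = 0.164). In vehicle-treated Npc1-/- mice it ended those of Rps14 (0.23, adjusted p = 0.088), Rpl4 (0.22, adjusted p = 0.135) and Rps21 (0.35, adjusted p = 0.16), and in dipyridamole-treated mice those of Rps21, Rpl37 and Rpl34 (adjusted p of 0.052 to 0.16). The tests of the genotype and dipyridamole responses between tissues, given earlier, called no member, so these calls are not shown to differ between groups of mice.

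**Figure D4:**
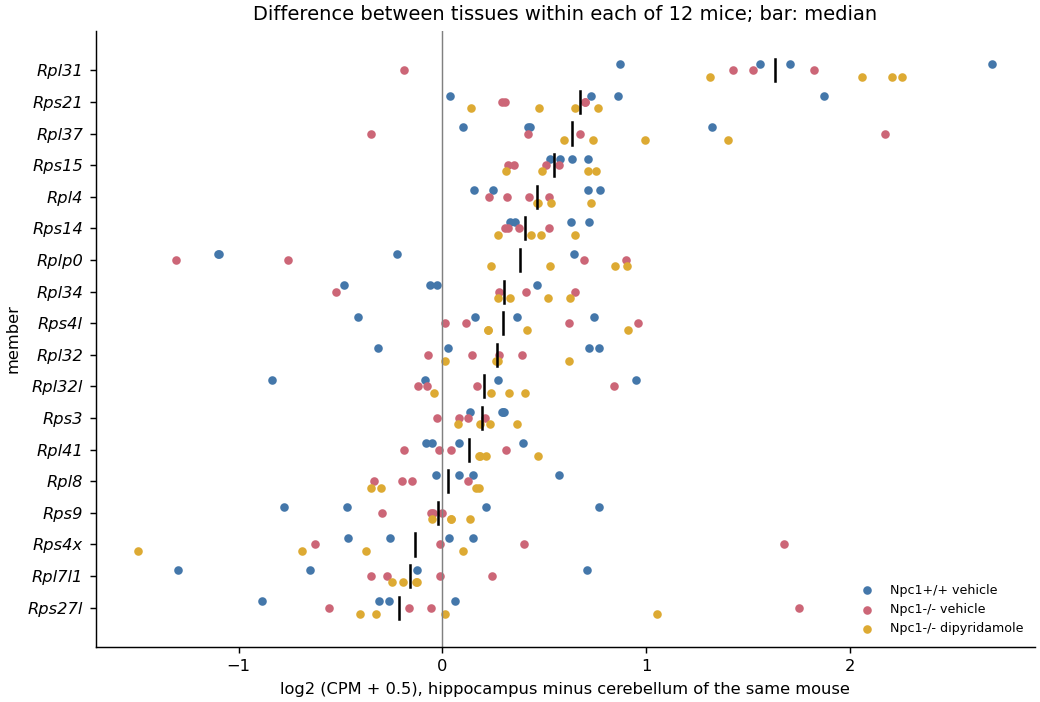
Hippocampus minus cerebellum of the same mouse, in log2 (CPM + 0.5), for 18 tested members; each point is a mouse, coloured by group, and the black bar is the median of 12 mice. Rps14, Rps15, Rps21 and Rpl4 lie right of 0 in all 12 mice.

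Mouse by mouse, Rps14, Rps15, Rps21 and Rpl4 were higher in the hippocampus in 12 of 12 mice, 4 of 20 members against 15.4% of all genes. No member was higher in the cerebellum in 12 of 12 mice, against 14.3% of all genes. The within-mouse log2 difference of Rps15 ran from 0.31 to 0.76 with a median of 0.55. That of Rps14 ran from 0.28 to 0.72, with a median of 0.41. Rpl31, Rpl37, Rps3 and Rps4l were higher in the hippocampus in 11 of 12 mice.

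Of 7 members listed as paralogues of another ribosomal protein gene, 3 were measured: Rps27l, Rps4l and Rpl7l1. None was called in any comparison with all mice. Without Npc1+/+ mouse 4, Rpl7l1 was called as lower in the hippocampus than in the cerebellum of Npc1+/+ mice (log2 value -0.70, adjusted p = 0.0028), against -0.35 (adjusted p = 0.21) with it. Rpl7l1, a relative of Rpl7 that acts in ribosome assembly, was 141, 90.3, 124 and 80.2 CPM in the Npc1+/+ cerebellum and 158, 65.8, 78.8 and 106 CPM in the vehicle-treated Npc1-/- cerebellum. The groups overlap, with a log2 difference of -0.14 ± 0.31 (SE, adjusted p = 0.82). Rps4l stood at 9.45 to 11.1 CPM in the Npc1+/+ cerebellum and at 6.68 to 10.6 CPM in the vehicle-treated Npc1-/- cerebellum, with means of 10.3 and 9.30 CPM. The fitted log2 difference was 0.12 ± 0.24 (SE, adjusted p = 0.79), and -0.09 without the sex term (adjusted p = 0.80). Rpl32l and its parent Rpl32 differed by -0.11 ± 0.35 and by less than 0.01 between the genotypes in the cerebellum (log2, adjusted p of 0.88 and 1.00).

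The remaining well counted large subunit proteins, Rpl8 and Rpl41, were not called in any comparison. Rpl8, of the subunit's core, stood at 309 to 348 CPM in the Npc1+/+ cerebellum and at 308 to 595 CPM in the vehicle-treated Npc1-/- cerebellum, with means of 330.0 and 408 CPM. The fitted log2 difference, with sex held constant, had the opposite sign at -0.04 ± 0.20 (SE, adjusted p = 0.92). Rpl41 stood at 204 to 232 CPM against 194 to 290.4 CPM there, a log2 difference of 0.04 ± 0.17 (SE, adjusted p = 0.90).

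Within groups the members did not all vary in the same direction: some moved together and others moved oppositely. Deviations of 10197 other genes from the mean of their group had a first shared component that held 40.5% of their variance. Rps9 (r = 0.93) and Rpl7l1 (r = 0.87) followed it up, and Rpl32 (r = -0.91), Rpl8 (r = -0.86) and Rps21 (r = -0.84) followed it down, over 24 libraries. An absolute r of 0.8 or more was found for 5 of 20 members and for 19.0% of the other genes. Rps3 followed it less (r = -0.31) and had the smallest spread of the tested members, an SD of 0.084 on the log2 scale within groups, against 0.40 for Rps21 and 0.37 for Rps9. Among the 105 pairs of the 15 well counted members, 22 had r above 0.5 and 27 had r below -0.5, and the median was 0.0073. The share of such pairs among all genes was not computed. Rps21 and Rpl7l1 stood at r = -0.91 and Rps9 and Rpl7l1 at r = 0.90. The libraries' score on the component went with the slope of their deviations on transcript GC content (r = -0.82) and less with library total (r = 0.37). These correlations share libraries and depth and are given as descriptions.

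**Figure D5:**
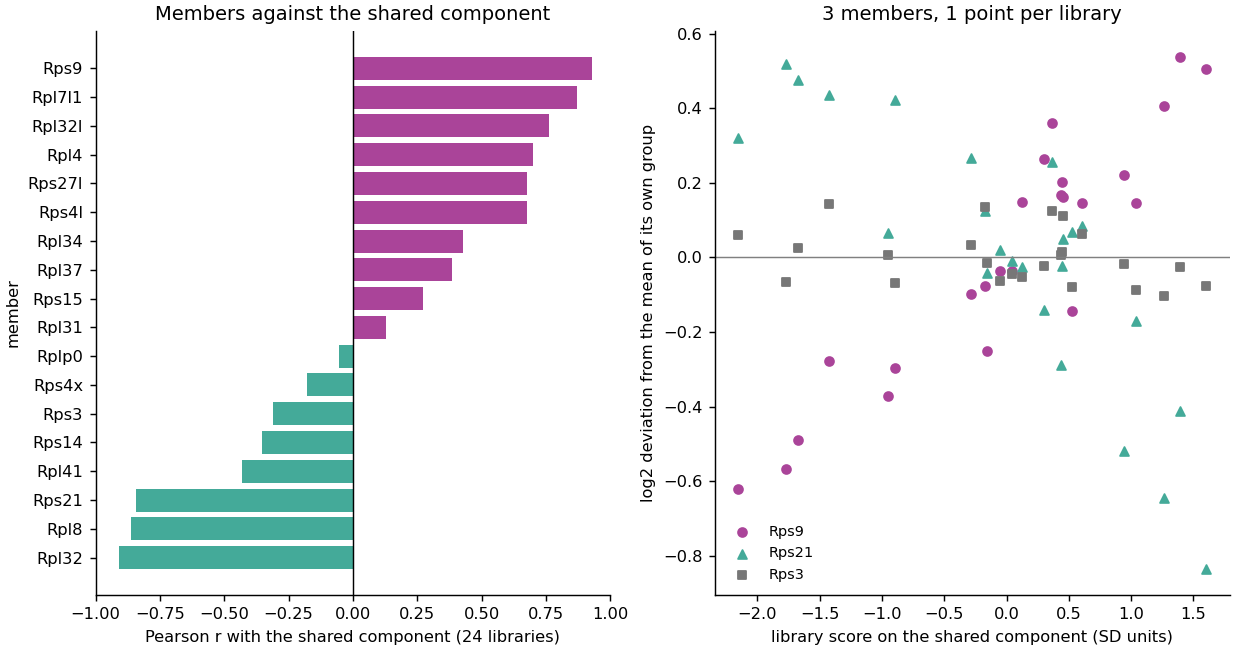
Left, Pearson r of 18 members with the first shared component of 10197 other genes over 24 libraries; right, the log2 deviation of Rps9, Rps21 and Rps3 from their group mean against the library's score (SD units), each point a library. Rps9 rises (r = 0.93), Rps21 falls (r = -0.84) and Rps3 stays within a narrow band.

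Rps9, a small subunit protein that guards decoding accuracy, shows what this spread does to a comparison. It was 991, 806, 942 and 692 CPM in the Npc1+/+ cerebellum and 1419, 696, 969.6 and 1375 CPM in the vehicle-treated Npc1-/- cerebellum. The groups overlap, with a log2 difference of 0.45 ± 0.25 (SE, adjusted p = 0.29). A separate component was also used as a covariate, an alternative chosen after seeing the data. It came from the residuals of other genes in the 12 cerebellar libraries, after group and sex were fitted. The difference was then 0.43 (adjusted p = 0.031). Taken from residuals, this covariate lowers the spread and can hardly move the difference, so the smaller p is partly built in. The difference was 0.19 in female mice alone, with 1 vehicle-treated Npc1-/- library, and 0.20 with only the 2 groups fitted (adjusted p = 0.84). Without vehicle-treated Npc1-/- mouse 3, the only female of its group, it was 0.77 (adjusted p = 0.26).

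Genes that build and use the ribosome were examined beside its proteins. For genotype in the cerebellum, where 5.91% of all genes were called higher and 4.04% lower, none of 58 tested ribosome biogenesis factors passed, and their median log2 fold change was -0.0025. Of 12 genes of RNA polymerase I, which transcribes ribosomal RNA, Polr1d fell (-0.73 ± 0.19, SE, adjusted p = 0.021) and Polr1a, the catalytic subunit, rose (0.65 ± 0.19, SE, adjusted p = 0.039). Of 8 elongation factor genes, Eef1a2, the form of adult neurons, fell (-0.80 ± 0.16, SE, adjusted p = 0.0032). It stood at 624, 700.1, 629.9 and 717 CPM in Npc1+/+ and at 380.2, 492, 383 and 407 CPM in vehicle-treated Npc1-/- mice, groups that do not overlap. Of 33 initiation factor genes, Eif3d rose (1.35 ± 0.38, SE, adjusted p = 0.029). None of 14 genes of mTORC1 and its regulators passed, nor did any of 12 other mRNAs with a terminal oligopyrimidine motif. In dipyridamole-treated Npc1-/- against Npc1+/+ cerebella, 8.13% of all genes were called higher and 6.29% lower. Of 58 biogenesis factors 2 rose there, Rrp1b (0.74 ± 0.17, SE, adjusted p = 0.0081) and Nop56 (0.56 ± 0.15, SE, adjusted p = 0.019), which act in the nucleolus. In the same list 1 fell, Noc3l (-0.92 ± 0.28, SE, adjusted p = 0.034). Of 33 initiation factor genes 2 were higher. Lower were 1 of 8 elongation factor genes and 1 of 12 genes of RNA polymerase I. In the hippocampus no gene of these lists passed for genotype, and none passed for dipyridamole in either tissue.

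Between tissues, 14 of 58 biogenesis factors were called as higher and 2 as lower in the hippocampus of Npc1+/+ mice, against 21.8% and 21.2% of all genes. These counts were 12 and 3 in vehicle-treated mice (20.8% and 20.6% of all genes) and 10 and 4 in dipyridamole-treated Npc1-/- mice (20.7% and 20.3%), so the share called higher was near that of all genes. In Npc1+/+ mice, 2 of 8 elongation factor genes were higher and 4 lower, as were 2 and 4 of 12 genes of RNA polymerase I. In each of the 2 Npc1-/- groups, 0 elongation factor genes were higher and 1 lower. Of the genes of RNA polymerase I, 0 were higher with vehicle and 1 with dipyridamole, and 0 were lower in either group. The median log2 difference of the biogenesis factors was 0.12, 0.14 and 0.15 in the 3 groups. Of 14 genes of mTORC1 and its regulators, 2 were higher and 2 lower in the hippocampus of Npc1+/+ mice. In Npc1-/- mice these counts were 3 and 2 with vehicle and 2 and 0 with dipyridamole. Their median log2 differences were -0.055, -0.076 and 0.026. Of 33 initiation factor genes, 1, 3 and 2 were higher and 2, 1 and 0 lower in the 3 groups. Nol6, which acts in small subunit assembly, was 1.00 ± 0.12 higher (log2, SE, adjusted p = 2.0e-06) in Npc1+/+ mice, and Nhp2, of the box H/ACA particles, 0.97 ± 0.12 (SE, adjusted p = 3.3e-06). Pdcd4, a translation inhibitor degraded on mTORC1 signalling, was 0.99 ± 0.12, 0.92 ± 0.12 and 0.80 ± 0.12 higher in the hippocampus in the 3 groups (log2, SE, adjusted p of 2.1e-06, 6.5e-06 and 2.6e-05). Pabpc1, the poly(A)-binding protein, and Eef1b2, an exchange factor of elongation, were called as higher in the hippocampus of Npc1+/+ mice (0.56 ± 0.12 and 0.63 ± 0.19, SE, adjusted p of 0.0012 and 0.011). The elongation factors Eef1a1 and Eef2 were called as lower there (-0.54 ± 0.19 and -0.41 ± 0.16, SE, adjusted p of 0.030 and 0.046). These were the 4 called of 12 tested other mRNAs with a terminal oligopyrimidine motif, whose median log2 difference was 0.0047. None of the 12 was called between tissues in either Npc1-/- group. Rack1 was not called between tissues in Npc1+/+ mice (0.16 ± 0.10, SE, adjusted p = 0.24).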

How the data were processed

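Per the labels' protocols, libraries were made by targeted amplification (Ion AmpliSeq Transcriptome Mouse panel, short amplicons) for an Ion S5 sequencer. The submitters' processing notes name FastQC 0.11.9, Trimmomatic 0.39, STAR 2.7.9a, GRCm39 and featureCounts 2.0.3. The deposited values are raw counts per gene, with no normalization by the authors, and per the file headers counting set no strand. Amplicon reads carry no molecular identifiers, so the limit that a count of 0 allows covers counting error only. The intervals of fold changes come from the fits and include the spread between mice.

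Symbols matched 51884 of 57126 gene IDs. Per tissue, edgeR 4.0.16 (R 4.3.3; TMM, filterByExpr, quasi-likelihood) was run over 12 libraries with group and sex. Differences between tissues were fitted over 24 libraries with the mouse as block, a pairing given by the animal labels. The libraries of a mouse correlated from -0.38 to 0.44 in their deviations, above 0.1 in 7 of 12 mice. The best correlation across tissues was with the same mouse in 1 of 12 cases, so the pairing rests on the labels. Adjusted p is Benjamini-Hochberg over all genes tested, threshold 0.05. DESeq2 1.42.0 and limma-voom (limma 3.58.1) were alternatives. Replicate libraries differed by more than counting noise (chi-square per degree of freedom 6.99 to 46.2). Each library is a separate mouse per the labels. Near-identical copies were found by searching coding sequences against GENCODE vM21 transcripts with BLAST 2.17.0. For members without an annotated coding sequence the whole transcript was searched. The tests were tested on simulated data. The members, gene lists and the rule for named genes were chosen with earlier results of these data known. The rule named up to 10 called members in each direction, or the 5 of smallest p as values where under 3 were called. It also always named the paralogues, stalk, 5S particle and reference members, and up to 4 called genes of each other list. Members described beyond it (Rpl8, Rpl32, Rpl32l, and Rps9 and Rps3 for their spread) were chosen after their values were seen. Results of 2 tested members are not reported here singly, and both stay in the counts and medians.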

Additional observations from a re-analysis of the deposited data

Results flagged for a closer look

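In 3 of 114 groups of 4 libraries examined (18 members and the family's share of counts in each of 6 groups), 1 library stood apart by Dixon's test at 95%, which chance gives in about 1 in 20 groups. Vehicle-treated Npc1-/- mouse 2, which had the fewest counts, was low for Rpl4 in the hippocampus at 343 CPM (the others 462 to 471 CPM). Dipyridamole-treated mouse 1 was low for Rpl7l1 in the cerebellum at 77.0 CPM, against 97.1 to 101 CPM. Npc1+/+ mouse 2 was high for Rps4x in the cerebellum at 1.50 CPM, against 0.513 to 0.606 CPM, on few counts.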

How the results depend on the processing

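Of 408 recomputed counts and medians of the members, 378 stayed within 1.5 times the count or 0.0869 log2 of the median, and 30 moved. The latter limit is the SD between replicates of the members' mean log2 CPM. A median changed sign for the tissue difference in vehicle-treated Npc1-/- mice (0.13 to -0.018). Another did so for dipyridamole in the cerebellum (-0.083 to 0.00019). Of 1710 recomputed values of named members, 62 lost a call, 5 gained one and 0 reversed in direction.

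For genotype in the cerebellum, 0 members were called with only the groups compared or with a replicate block. Female mice alone left 1 vehicle-treated Npc1-/- library, so no count is given for them. With the first component of the cerebellar residuals of other genes as covariate, chosen after seeing the data, 2 were called. The median was 0.21 without the sex term. Leaving out a replicate gave 0 to 1 calls and medians of 0.045 to 0.22. For treated against wild type, the cerebellum had 1 call with a replicate block, 0 without the 2 mice in doubt (vehicle-treated Npc1-/- mouse 2 and dipyridamole-treated mouse 4, chosen after seeing the data), and 0 to 2 on leaving out a replicate. The hippocampus had 1 call with DESeq2 and 1 with the first component of its own residuals as covariate. Its medians ran from 0.0074 to 0.17 on leaving out a replicate.

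For the tissue difference, library totals in place of TMM moved the median of all genes by -0.15 and -0.14 in the 2 Npc1-/- groups. Vehicle-treated mice then had 2 calls and a member median of -0.018, below 0, and dipyridamole-treated mice 4 calls and a median of 0.13. A stricter filter, which leaves 15 members tested, gave 3 and 4 calls. Leaving out a replicate gave 3 to 6 calls and medians of 0.13 to 0.23 in vehicle-treated and 4 to 5 calls in dipyridamole-treated mice. The cause of these changes was not tested.

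The labels do not pair same-numbered mice of different groups. Most same-numbered Npc1-/- mice of the 2 treatments do have the same sex and neighbouring animal numbers and Ion codes. Deviations of same-numbered mice correlated from -0.37 to 0.54, above 0.1 in 2 of 12 pairs in the cerebellum and 5 of 12 in the hippocampus. A library correlated best with its own number in 5 and 8 of 24 cases. Whether same-numbered mice were handled together was not tested. Apart from the cerebellar counts given, a replicate block, or leaving out the mouse block in the tissue fits, moved no count of members by over 1.5 times.

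The depth limits Rplp0, Rpl31, Rpl37 and Rps4x, at 0 to 59 counts per library, and leaves 69 members untested.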

Other observations

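Of 300 genes named as pseudogenes of the members, 299 had under 100 counts and 1, Rps19-ps3 (chromosome 4 from 147906234 to 147906659, GRCm39, minus strand), had 5055, while its parent Rps19 had 3. It stood at 23.2, 27.3, 27.5 and 29.2 CPM in the Npc1+/+ cerebellum and at 28.0, 39.6, 32.6 and 26.6 CPM in the vehicle-treated Npc1-/- cerebellum, groups that overlap. In the hippocampus it stood at 17.7 to 27.9 CPM in Npc1+/+ mice and 24.5 to 26.9 CPM in dipyridamole-treated mice.

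Near-absent counts were not limited to the ribosome. Gapdh, a common reference gene of glycolysis, had 24 counts over all 24 libraries and Tpt1, another abundant mRNA with a terminal oligopyrimidine motif, had 4, while Actb, which encodes beta-actin, had 887694.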
